A study of Mus musculus with 12 samples.

Results

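Rescue of N2a cells with the exon-3-containing isoform of Sap30bp was compared with the control of the same line, to describe what still differed from control once the isoform was induced. The comparison used 4 of the 12 samples of the study, chosen by their labels: 2 rescue libraries and 2 control libraries of the exon-3-containing line. N2a is a mouse neuroblastoma line. The cells carried a Flp-In integration site, the rtTA activator and a cDNA for FLAG-tagged Sap30bp that holds exon 3 and responds to doxycycline, in control and rescue cells alike. Control cells received non-targeting siRNA and no doxycycline. Knockdown cells received siRNA against Sap30bp and no doxycycline, and rescue cells received that siRNA and the drug. Medium with or without the drug was given 24 hours after transfection, harvest was at 72 hours, and wells of a condition were pooled. A second line with 6 libraries carries the cDNA without exon 3 and was treated in the same way. No group received control siRNA with doxycycline, so the drug and the induced isoform cannot be told apart. Rescue and control also differ in the siRNA. Effects of the siRNA other than loss of Sap30bp therefore cannot be told apart from what the isoform left unrestored.

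SAP30BP is a nuclear protein that works with the splicing factor RBM17 in the recognition of 3' splice sites, and short introns with weak pyrimidine tracts are known to depend on this pair. An intron that is not removed stays in the RNA, where it often brings a premature stop codon and holds the transcript in the nucleus or marks it for decay. Cassette exons are exons that are either joined to their neighbours or skipped, and microexons are very short cassette exons used mostly in neurons.

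Sap30bp itself comes first, as a check of the labels. Its 48 nt exon 3 is shown because the induced cDNA is defined by it. The sequence was read from the GENCODE M21 transcripts (GRCm38, chr11:115938010-115938057, plus strand) after a match by gene symbol, exon length and flanking intron length, with the exon in capitals and 20 nt of each neighbouring exon in lower case.
Sap30bp exon 3: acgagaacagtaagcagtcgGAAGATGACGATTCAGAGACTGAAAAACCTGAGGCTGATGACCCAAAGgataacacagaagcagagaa
Exon inclusion, the percentage of transcripts that contain the exon, was 94.0% and 95.8% in control, 96.3% and 96.8% in knockdown and 98.8% and 99.2% in rescue. Both rescue libraries lay above both controls, by 4.11 points on average (limma SE 3.01, adjusted p = 0.773). Total Sap30bp RNA stood at 33.6 RPKM (reads scaled by transcript length and library size) in control, 18.6 in knockdown and 141 in rescue according to the authors' deposited table. Its log2 fold change of rescue against control there was 1.02 (FDR 0.000106), while the log2 ratio of RPKM in the authors' deposited table, with 1 added to each value, was 2.04. Why these measures of Sap30bp differ in size was not tested. Rbm17 was at 105 RPKM in control and 113 in rescue, with a log2 fold change of 0.15 (FDR 1) in the authors' deposited table. In bulk RNA of this kind, a smaller share of cells and less RNA per cell cannot be told apart.

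The read depth behind the values is unknown, since inclusion values come without read numbers and expression is given as 1 RPKM value a group. Replicates of the 6 groups differed by a median of 2.05 to 2.69 points over the tested events. Of 8 neuroblastoma markers, 7 reached 1 RPKM in control or rescue, and their sum was 834 RPKM in control and 894 in rescue (the authors' deposited table). Fibroblast and mesenchymal markers summed to 4.52 and 3.42 RPKM, glial markers to 0.85 and 0.58 and immune markers to 1.17 and 2.1 (the authors' deposited table), with Col1a1, Col3a1, Lum, Aqp4, Olig2, Sox10 and Cd3e under 0.1 RPKM in both groups. The limma p-values and SEs rest on the spread between 2 biological replicates a group. That spread is pooled over the 6 groups of both lines and moderated across events, so it is not that of control and rescue alone. FDRs of expression are those of the authors' deposited table.

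Introns set apart between rescue and control were mostly more retained in rescue. Retention was at least 15 points higher in rescue, with both rescue libraries above both controls, in 181 (1.06%) of 17096 tested introns, which lie in 139 genes, and lower by the same measure in 19 (0.111%). Cassette exons had the opposite balance, with 45 (0.688%) of 6543 included more in rescue and 86 (1.31%) included less. In all, 386 (1.33%) of 28980 events were set apart in this way, which describes 2 libraries against 2 and is no test. By limma with Benjamini-Hochberg adjustment over all 28980 events, 0 events (0%) passed an adjusted p of 0.05 with a difference of 15 points, and the lowest adjusted p was 0.0805. An unadjusted p under 0.05 was reached by 2430 events, 1436 of them higher, and 1449 would be 5% of the events. The 386 events became 407 without control replicate 1 and 737 without control replicate 2. They became 691 without rescue replicate 1 and 531 without rescue replicate 2. With a library left out, its group has a single library and non-overlap is easier to meet, so these counts are not directly comparable with 386. Why they differ from library to library was not tested.

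Knockdown against the same 2 control libraries had 828 (2.86%) events set apart. Its introns were 453 (2.65%) more retained and 47 (0.275%) less, and its exons 49 (0.749%) more and 182 (2.78%) less included. Limma called 98 (0.338%) knockdown events, a count that was 0 without either control library of the line, 32 without knockdown replicate 2, 59 without rescue replicate 2, 15 without either control library of the other line and 47 without rescue replicate 1 of the other line. That count was also 258 with the replicate number as a block, 53 on the logit scale, 20 without the filter on mean inclusion and 0 with only the 6 libraries of the line. For rescue against control, the authors' deposited table of splicing events lists 418 calls, with 195 introns higher and 32 lower and 49 exons higher and 102 lower. Of these 418 calls of the authors' deposited table, 248 were among the tested events and 243 of the 248 did not overlap between rescue and control, as did 39.2% of all tested events. The authors made these calls on the same libraries.

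The introns farthest from control were mostly short. Sequences are given for a pair of them found whole in a GENCODE M21 transcript (GRCm38), taken by symbol, intron length and flanking exon length. They are shown because the 3' end of an intron is where SAP30BP and RBM17 are known to work. Of the named introns, exons and microexons, 33 were searched for and 18 of these could be matched. Some named exons, among them those of Obsl1, Rpusd1 and Ccnl1, were not searched for. Each run has 10 nt of both flanking exons, with the intron between them, and the last 20 nt of the intron, which hold the pyrimidine tract and the 3' splice site, in capitals. The coordinates are those of the intron.
Ilvbl intron, chr10:78583535-78583629, plus strand: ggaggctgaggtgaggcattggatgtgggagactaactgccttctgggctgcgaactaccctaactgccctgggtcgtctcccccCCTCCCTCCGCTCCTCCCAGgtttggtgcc
Ppp1r16a intron, chr15:76693139-76693226, plus strand: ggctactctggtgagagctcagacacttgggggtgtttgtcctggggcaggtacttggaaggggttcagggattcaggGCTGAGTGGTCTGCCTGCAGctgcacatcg
Both introns lie between coding exons, begin with GT and end with AG. The capitals hold 17 pyrimidines among 20 bases in Ilvbl and 10 in Ppp1r16a. For the 88 nt intron of Ppp1r16a, which encodes a regulatory subunit of protein phosphatase 1, retention was 22.8% and 16.9% in control, 59.2% and 57.1% in knockdown and 60.6% and 58.3% in rescue. Rescue overlapped knockdown and lay 39.6 points above control (limma SE 6.72, adjusted p = 0.231). The 95 nt intron of Ilvbl was retained at 19.3% and 30.7% in control, 68.8% and 61.5% in knockdown and 56.7% and 69.2% in rescue. Here too rescue overlapped knockdown and not control, at a difference of 38.0 points (limma SE 8.03, adjusted p = 0.262).

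Other introns at the head of the list also had rescue near knockdown and away from control. H2-Ke6 encodes a hydroxysteroid dehydrogenase of mitochondrial fatty acid synthesis. Its 170 nt intron (mm9 chr17:34163171-34163340) was retained at 31.2% and 36.7% in control, 76.7% and 77.1% in knockdown and 71.4% and 77.3% in rescue. The difference from control, 40.4 points (limma SE 4.64), had the lowest adjusted p of all events, 0.0805. Mst1, which encodes the ligand of the RON receptor, had the largest difference among the introns. Its 78 nt intron (mm9 chr9:107985282-107985359) was retained at 17.2% and 40.9% in control, 81.0% and 64.3% in knockdown and 84.0% and 71.4% in rescue. The controls of Mst1 lay far apart from each other but below every rescue value, with a difference of 48.6 points (limma SE 12.4, adjusted p = 0.339). Pan2 encodes the catalytic subunit of a poly(A) nuclease, and its 141 nt intron (mm9 chr10:127751098-127751238) was at 16.5% and 12.8% in control, 71.3% and 51.6% in knockdown and 49.4% and 51.0% in rescue. For Map4k2, a kinase upstream of JNK, the 78 nt intron (mm9 chr19:6343177-6343254) was at 24.7% and 27.5% in control, 76.7% and 63.3% in knockdown and 62.0% and 53.6% in rescue. In Pan2 and Map4k2 both rescue libraries lay between the groups, under both knockdown libraries and above both controls by 35.5 and 31.7 points on average (limma adjusted p = 0.303 and 0.246). Introns of Hsd3b7 (an enzyme of bile acid synthesis), Sspo, Stx4a (a membrane fusion protein), Ccdc22 and Pcyt2 (an enzyme of phospholipid synthesis) were 38.9, 34.7, 33.0, 31.4 and 31.0 points higher in rescue. Replicates could be uneven, as for Pcyt2 with 22.7% and 68.4% in rescue and 11.5% and 17.7% in control.

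**Figure D1:**
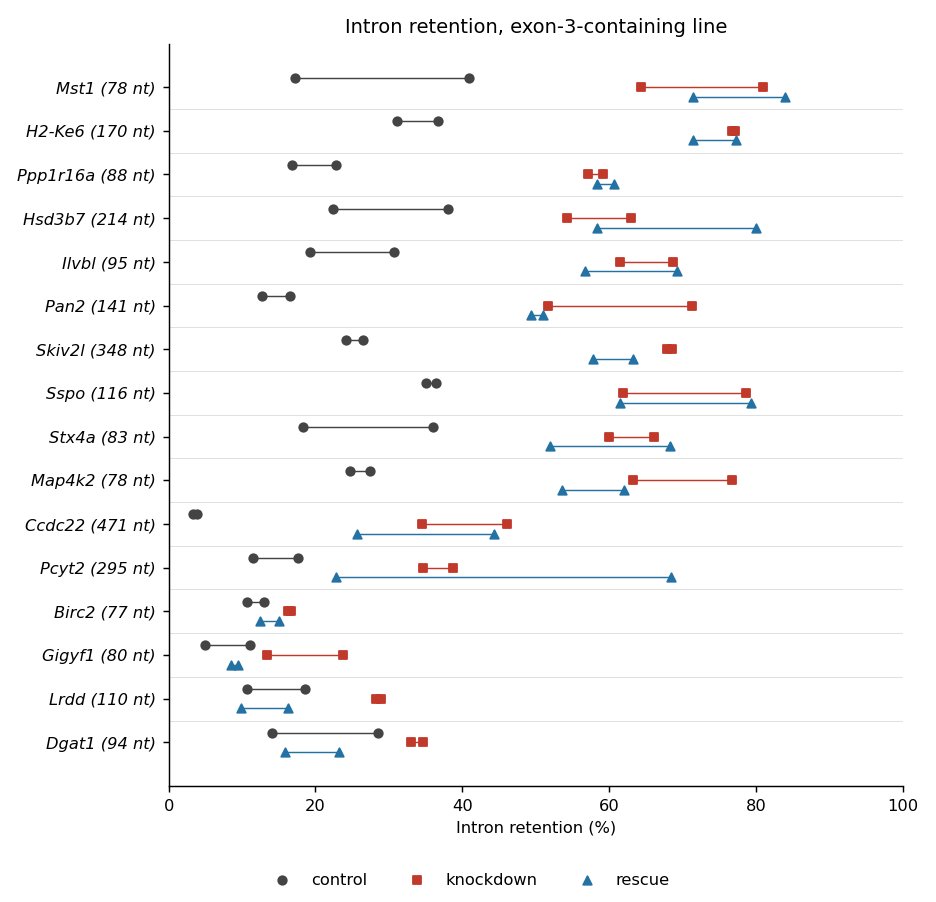
Intron retention in percent for each library of the exon-3-containing line, 2 libraries a group joined by a line, with intron length beside the gene name. In the upper 12 introns both rescue libraries lie above both controls, and in the lower 4, from Birc2 to Dgat1, rescue and control overlap.

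Several genes had more than 1 such intron. Skiv2l, the helicase of the SKI complex that feeds RNA to the exosome, had 5. Its 348 nt intron was at 24.1% and 26.4% in control, 67.9% and 68.6% in knockdown and 57.8% and 63.2% in rescue, and its 72 nt intron was at 13.0% and 18.6% in control, 54.2% and 50.0% in knockdown and 33.3% and 37.9% in rescue. In both of these Skiv2l introns rescue lay between control and knockdown without overlap, as it did in one of the other three, with uneven replicates. Rescue overlapped knockdown in the 85 nt and 83 nt introns, the latter at 6.06% and 6.90% in control, 39.1% and 36.2% in knockdown and 20.6% and 51.6% in rescue. Abca7, a lipid transporter, and Dpp7, a lysosomal dipeptidase, had 4 each. Among the genes with 3 were Ilvbl, Lass4 (now Cers4, a ceramide synthase), Map4k2, Mst1, Plxna3 (a semaphorin receptor) and Rnf215. Introns of a gene share its transcripts and are not independent counts. The 19 introns with less retention in rescue included a 607 nt intron of Prpf4b, a kinase of the spliceosome, at 39.6% and 23.3% in control, 8.15% and 7.87% in knockdown and 12% and 9.55% in rescue. A 360 nt intron of Fam120c was at 38.7% and 38.2% in control, 14.6% and 13.5% in knockdown and 21.4% and 15.1% in rescue. Both introns had rescue slightly above knockdown and well under control. In Kif7, a kinesin of Hedgehog signalling, a 525 nt intron was at 18.9% and 51.2% in control, 4.76% and 21.2% in knockdown and 5.71% and 11.8% in rescue, so its controls lay further apart than its rescue libraries.

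The share of introns set apart differed by intron length. Of 1958 introns under 100 nt, 50 (2.55%) were more retained in rescue by at least 15 points without overlap and 0 were less retained. From 100 nt up to 200 nt the counts were 39 (1.85%) and 0 of 2106, from 200 nt up to 1000 nt 69 (1.16%) and 14 (0.236%) of 5939, and at 1000 nt or more 23 (0.324%) and 5 (0.0705%) of 7093. The median difference between rescue and control followed the same order, at 1.95, 1.60, 0.63 and 0.455 points. Among introns under 100 nt, 47.1% had both rescue libraries above both controls by any amount, against 27.8% of all introns and 21.3% of those of 1000 nt or more. The median length was 205 nt for the 181 more retained introns, 450 nt for the 19 less retained and 715 nt for the other tested introns. Limma called 0 introns in each of the 4 length classes.

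**Figure D2:**
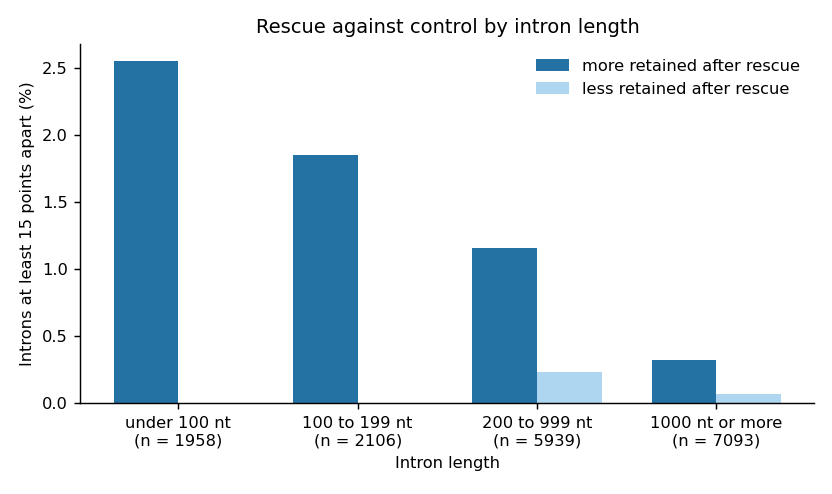
Percentage of tested introns in each length class with rescue and control libraries of the exon-3-containing line not overlapping and means at least 15 points apart, drawn separately for more and less retained introns. The bars for more retained introns decline from 2.55% under 100 nt to 0.324% at 1000 nt or more.

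Among cassette exons, those skipped more in rescue came from genes of several functions. A 72 nt exon of Med25 stands below for the exons skipped more, a 117 nt exon of Arhgef10l for those included more and the 3 nt microexon of Ncam1 for the shortest, each in capitals with bases of the neighbouring exons in lower case (GENCODE M21, GRCm38).
Med25 exon, chr7:44880567-44880638, minus strand: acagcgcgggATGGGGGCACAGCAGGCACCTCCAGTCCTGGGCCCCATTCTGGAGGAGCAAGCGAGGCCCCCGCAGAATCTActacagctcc
Arhgef10l exon, chr4:140586784-140586900, minus strand: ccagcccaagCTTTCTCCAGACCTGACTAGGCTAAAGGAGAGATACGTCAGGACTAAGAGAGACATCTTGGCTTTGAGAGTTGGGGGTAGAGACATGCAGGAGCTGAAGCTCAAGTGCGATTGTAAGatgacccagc
Ncam1 microexon, chr9:49531974-49531976, minus strand: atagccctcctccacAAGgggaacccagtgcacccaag
Inclusion of the exon of Med25, a subunit of the Mediator complex, was 94.9% and 81.7% in control, 51.5% and 64.4% in knockdown and 61.0% and 58.9% in rescue. Rescue lay within the range of knockdown and differed from control by -28.3 points (limma SE 5.11, adjusted p = 0.231). The lowest value relative to control was that of a 115 nt exon of Obsl1, a cytoskeletal linker of the obscurin family (mm9 chr1:75488803-75488917). It was included at 79.0% and 65.9% in control, 37.1% and 32.9% in knockdown and 37.0% and 31.8% in rescue. Rescue and knockdown overlapped, -38.0 points from control for rescue (limma SE 5.86, adjusted p = 0.165). Ccnl1 encodes cyclin L1, a partner of splicing-associated kinases. Its 73 nt exon was at 62.3% and 66.5% in control, 27.2% and 27.8% in knockdown and 38.5% and 35.5% in rescue, so rescue lay between the other groups without overlap. Exons of Arhgap33, Rpusd1 and Slc9a5 (a sodium-proton exchanger) differed from control by -34.0, -30.4 and -27.2 points. For Slc9a5 and Rpusd1 rescue again lay between knockdown and control, with Slc9a5 at 75.9% and 71.6% in control, 30.3% and 25.2% in knockdown and 49.5% and 43.6% in rescue. Eno2, the neuronal enolase of glycolysis, had 2 exons set apart, a 134 nt exon at 83.4% and 76.8% in control and 54.6% and 57.2% in rescue and a 223 nt exon at 86.3% and 80.9% in control and 60.1% and 63.0% in rescue.

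Among the exons included more in rescue was that of Arhgef10l, a guanine nucleotide exchange factor. Its 117 nt exon was at 24.1% and 26.0% in control, 46.9% and 41.3% in knockdown and 44.4% and 55.3% in rescue. Rescue overlapped knockdown and lay 24.8 points above control (limma SE 5.25, adjusted p = 0.262). Sun1, which ties the nuclear envelope to the cytoskeleton, had a 111 nt exon at 66.9% and 58.9% in control, 80.7% and 70.4% in knockdown and 82.3% and 91.2% in rescue, with knockdown between the other groups. Mbnl1 encodes a regulator of alternative splicing, and its 54 nt exon was at 48.2% and 50.5% in control, 71.4% and 66.4% in knockdown and 62.6% and 78.3% in rescue. Of the 45 exons included more, 31 (68.9%) had a length divisible by 3, as had 36 of the 86 included less (41.9%) and 42.1% of all tested exons. Of 195 microexons of 3 to 27 nt, 3 (1.54%) were set apart with more inclusion, in Dctn4, Ncam1 and Bin1. Less inclusion was found in 4 (2.05%), among them Mtss1l, Ccdc66 and Mfsd6. The shares over the other cassette exons were 0.688% and 1.31%, and counts this small are not read as a result about microexons. Ncam1 encodes a neural cell adhesion molecule, and its microexon was included at 59.4% and 66.4% in control, 81.4% and 78.7% in knockdown and 81.1% and 76.4% in rescue. Its rescue and knockdown values overlapped, 15.9 points above control for rescue (limma adjusted p = 0.277).

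**Figure D3:**
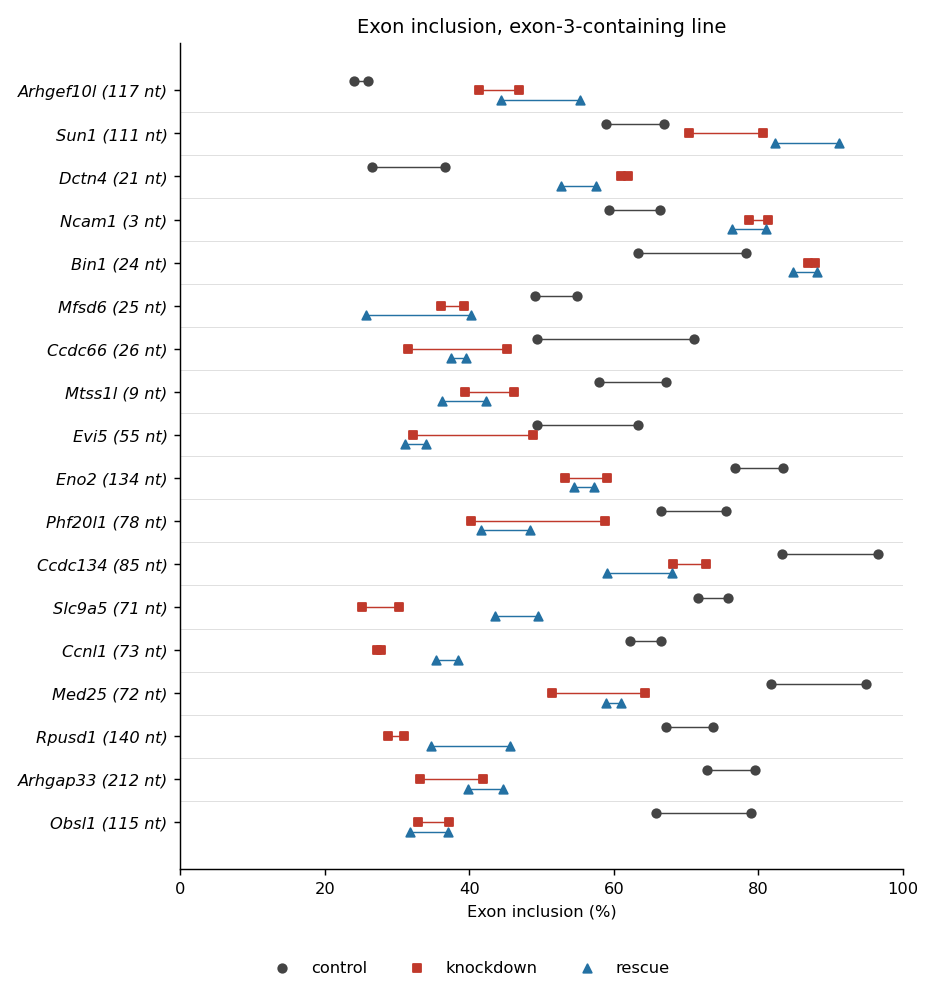
Inclusion in percent of the named exons and microexons in each library of the exon-3-containing line, 2 libraries a group joined by a line. From Arhgef10l to Bin1 the rescue libraries lie above control and from Mfsd6 to Obsl1 below it, and for Dctn4, Ccnl1, Slc9a5 and Rpusd1 they lie between knockdown and control.

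Alternative splice sites gave 26 (0.835%) of 3115 events set apart at 3' sites and 22 (1.08%) of 2031 at 5' sites, both under the 1.33% of all events. In Fam160a2 the use of a 5' site was 44.4% and 47.5% in control, 74.5% and 81.4% in knockdown and 73.3% and 85.9% in rescue. Rescue there overlapped knockdown and lay 33.6 points above control (limma adjusted p = 0.165). Rescue and knockdown did not always lie together. In Fibp, which encodes a protein that binds acidic fibroblast growth factor, a 5' site was used at 76.4% and 72.8% in control, 68.6% and 67.6% in knockdown and 56.1% and 55.4% in rescue. A 3' site of Syde2 was used at 34.3% and 30% in control, 37.8% and 44.4% in knockdown and 54.8% and 53.9% in rescue. In Fibp and Syde2 both rescue libraries lay further from control than both knockdown libraries did.

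Because knockdown and rescue share their controls, events that differ in knockdown were also taken from the other line, which shares no library with this comparison. The knockdown of the other line also used siRNA against Sap30bp, so this choice does not set effects of the siRNA itself apart. For the knockdown of that line, the authors' deposited table of splicing events gives 807 calls, of which 446 were tested here, among them 257 introns retained more. In the exon-3-containing line these 257 introns had a median difference from control of 21.5 points in knockdown and 11.4 points in rescue (quartiles 7.47 and 16.6), where the median of all 17096 introns in rescue was 0.815. Both rescue libraries lay above both controls in 211 of the 257 (82.1%, with 27.8% over all introns). They lay below both controls in 0 (with 11% over all introns). In 78 (30.4%, with 1.06% over all introns) rescue was higher by at least 15 points without overlap. The 94 exons skipped more in that knockdown had a median of -18.2 points in knockdown and -11.3 in rescue of the exon-3-containing line. In 66 of them (70.2%) both rescue libraries lay below both controls, with 23.1% over all exons. The 34 exons included more had medians of 14.4 and 11.5 points and 25 of them (73.5%, with 18.2% over all exons) did not overlap. The 31 introns retained less had medians of -11.5 and -9.03 points, and 18 of them (58.1%, with 11% over all introns) did not overlap. The single rescue libraries gave medians of 10.4 and 11.1 points over the 257 introns. Limma called none of these events in rescue against control.

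**Figure D4:**
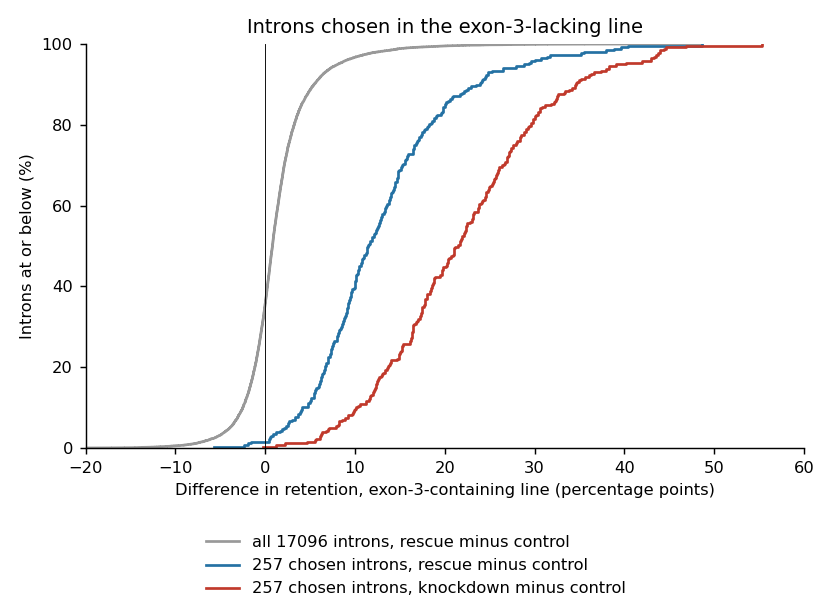
Cumulative percentage of introns by difference in retention within the exon-3-containing line, for 257 introns chosen by the authors' knockdown calls in the exon-3-lacking line (rescue minus control and knockdown minus control) and for all 17096 tested introns (rescue minus control). The curve of the chosen introns in rescue, with its median at 11.4 points, lies between that of all introns and that of the same introns in knockdown.

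Some introns of the other line's knockdown were close to control after rescue. The nearest to control, among the 100 with the largest knockdown difference in that line, were introns of Gigyf1, Lrdd, Dgat1 and Birc2. Lrdd encodes a death domain protein downstream of p53, and its 110 nt intron was at 18.5% and 10.7% in control, 28.3% and 28.9% in knockdown and 16.3% and 9.80% in rescue. Dgat1, which makes triglycerides, had a 94 nt intron at 14.1% and 28.6% in control, 33.0% and 34.6% in knockdown and 15.8% and 23.1% in rescue. For Gigyf1, an adaptor of translational repression, the 80 nt intron was at 4.95% and 11.1% in control, 13.5% and 23.7% in knockdown and 9.40% and 8.43% in rescue. In Birc2, which encodes an inhibitor of apoptosis, the 77 nt intron was at 10.6% and 13.0% in control, 16.3% and 16.7% in knockdown and 15% and 12.5% in rescue. In all 4 introns rescue overlapped control and not knockdown, and the 4 were chosen for that small difference.

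The exon-3-lacking line allows the same comparison with the other isoform. Its rescue and control had 219 (0.756%) events set apart, with 32 (0.187%) introns more retained and 93 (0.544%) less, and 9 (0.138%) exons included more and 51 (0.779%) less. Of its introns under 100 nt, 21.2% had both rescue libraries above both controls, with 9.82% over all its introns. The exon-3-containing line had 47.1% of introns under 100 nt, with 27.8% over all introns, so both shares were higher there. The order by length was not particular to that line. In rescue of the exon-3-lacking line the median difference was 0.52, 0.185, -0.785 and -0.93 points from the shortest to the longest length class. Of the introns that the authors called more retained in knockdown of the exon-3-containing line, 346 were among the tested events. Their median difference from control in the exon-3-lacking line was 16.7 points in knockdown and 3.54 in rescue, where the median of all introns in that rescue was -0.57. The 23 tested introns called less retained were at -16.2 points in knockdown and -16.4 in rescue of that line, the 155 exons skipped more at -13.5 and -8.62, and the 45 exons included more at 13.6 and 5.34. By limma, 1 event of 28980 (0.00345%) was called in the difference between the lines, Sap30bp exon 3, at 85.8 points (SE 4.26, adjusted p = 1.29e-05), and 1307 had an unadjusted p under 0.05. Isoform and cell line are the same factor in this design and cannot be told apart. Total Sap30bp RNA also differed, at 196 RPKM after rescue without exon 3 and 141 RPKM after rescue with it. The log2 fold changes against control were 1.42 and 1.02, in the same order (the authors' deposited table). Whether this amount of RNA bears on the differences between the lines was not tested.

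Expression was compared with the authors' deposited table, which gives a log2 fold change and an FDR per gene without replicate values. The FDRs belong to the log2 fold changes, which can differ in size or sign from the RPKM values beside them. Dgat1, for example, was at 23.2 RPKM in control and 26.7 in rescue with a log2 fold change of -0.14 (the authors' deposited table). Why these measures differ was not tested. At an FDR under 0.05, 490 (2.27%) of 21541 genes differed between rescue and control, 209 (0.97%) higher and 281 (1.3%) lower, with a median log2 fold change over all genes of -0.006. Of the called genes with at least 1 RPKM in control or rescue, 113 were higher and 249 lower, and 36 called genes were listed at 0 RPKM in control (the authors' deposited table). Knockdown against the same controls had 793 (3.68%), 319 (1.48%) higher and 474 (2.2%) lower, in the authors' deposited table. The genes that rose most were near 0 in control. Fibin was listed at 0 RPKM in control, 1.36 in knockdown and 1.44 in rescue in the authors' deposited table (FDR 1.17e-14). Tenm2, an adhesion protein of the teneurin family, stood at 0.01, 1.16 and 1.04 RPKM in the same order (FDR 6.42e-43, the authors' deposited table). Slc1a1, a neuronal glutamate transporter, was at 0.04 RPKM in control, 2.51 in knockdown and 2.71 in rescue (log2 fold change 5.75, FDR 3.72e-26) in the authors' deposited table. Lcn2, which binds iron-carrying siderophores, was at 0.12, 3.75 and 3.54 RPKM (FDR 1.53e-11), and Taf7l, a germ cell form of a TFIID subunit, at 0.27, 8.03 and 8.41 RPKM (FDR 7.98e-11), in the authors' deposited table. In each of these genes knockdown and rescue both lay above control. Also among the 12 highest with at least 1 RPKM in control or rescue were Fam129a, Plcl1, 4933430H16Rik and the gene models Gm5169, Gm4836, Gm2012 and Gm14819. All 12 genes were under 0.3 RPKM in control per the authors' deposited table.

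Among the genes that fell, Procr, the receptor of activated protein C, fell from 69.1 RPKM in control to 12.5 in rescue, with 12.6 in knockdown (log2 fold change -2.60, FDR 0.000429), in the authors' deposited table. Drd1, a dopamine receptor, was at 2.93 RPKM in control, 0.2 in knockdown and 0.38 in rescue (log2 fold change -2.82, FDR 1.28e-07) in the authors' deposited table. Aldoc, the brain form of aldolase, was at 6.68, 2.62 and 1.41 RPKM (log2 fold change -2.23, FDR 1.29e-09), per the authors' deposited table. Col6a1, a chain of collagen VI, was at 17.5, 6.35 and 4.04 RPKM (log2 fold change -2.12, FDR 0.00846), per the authors' deposited table. Aldoc and Col6a1 had lower values in rescue than in knockdown, a difference with an FDR of 1 for each in the authors' deposited table. The other 8 of the 12 lowest, chosen like the rest with at least 1 RPKM in control or rescue, were Galnt15, Ssu2, Slco2b1, Zmynd10, Lgals9, Col24a1, Mrgprf and Platr26, with log2 fold changes from -2.96 to -2.14 in the authors' deposited table.

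**Figure D5:**
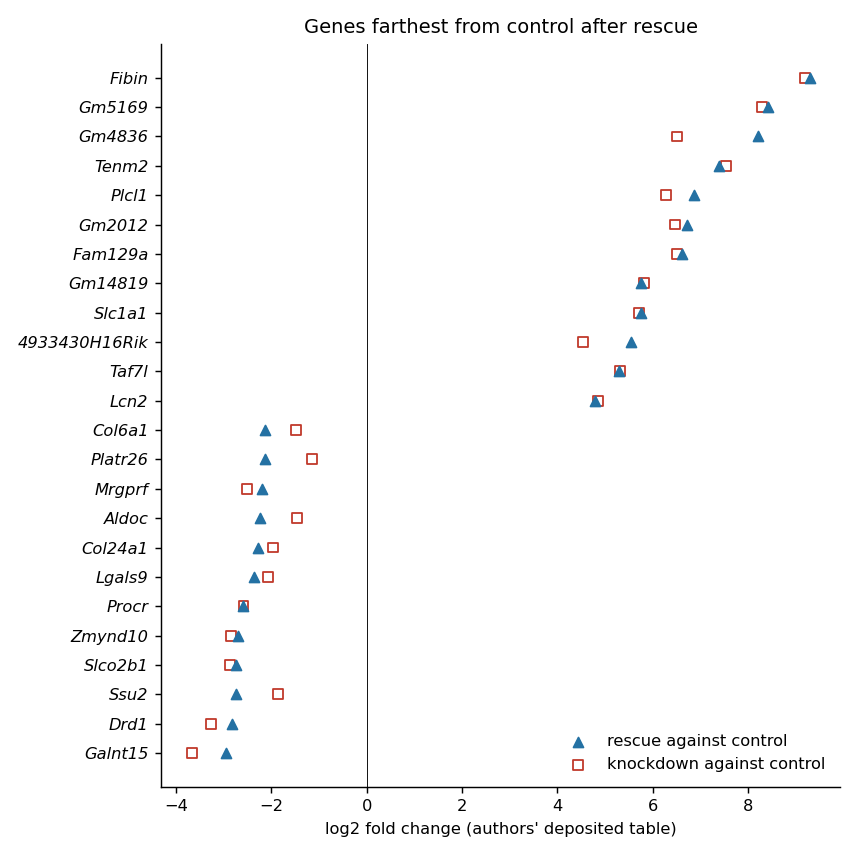
Log2 fold changes of the authors' deposited table for the 12 genes highest and the 12 lowest after rescue, for rescue against control (triangles) and knockdown against control (open squares) of the exon-3-containing line, which share the control libraries. For rescue the highest genes lie between 4.79 and 9.29 and the lowest between -2.96 and -2.12.

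Neuroblastoma and neuronal genes changed in both directions: 4 of 42 rose and 2 fell in the authors' deposited table, with a median of -0.04, where 0.97% of all genes were called higher and 1.3% lower. Gap43, a growth cone protein, rose from 35.99 to 96.5 RPKM (log2 fold change 1.41, FDR 0.00642), with 128 in knockdown, in the authors' deposited table. The noradrenergic regulators Phox2a and Hand2 rose from 35.99 to 86.3 and from 82.6 to 139.9 RPKM (FDR 0.00584 and 0.0336, the authors' deposited table). Dbh, which makes noradrenaline, rose from 0.2 to 1.39 RPKM (FDR 0.0238, the authors' deposited table). Eno2 fell from 139 to 43.6 RPKM and Slc18a2, the vesicular monoamine transporter, from 92.1 to 45.1 RPKM (FDR 1.21e-10 and 0.000239), in the authors' deposited table. Eno2 is also the gene with 2 exons that were included less in rescue. The markers of other cell types given above were at or under a few RPKM in sum in control and rescue.

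Among the other gene lists, few members of each passed. Of 41 NF-kB and immediate early genes, 4 fell and 1 rose in the authors' deposited table (1.3% lower and 0.97% higher over all genes), with a median of -0.38 that was -0.16 on log2 RPKM ratios. Ier3, an immediate early gene, fell from 41.0 to 10.3 RPKM (FDR 1.1e-13) and Phlda1 from 44.4 to 15.5 RPKM (FDR 1.79e-08), in the authors' deposited table. Dusp4, a phosphatase of MAP kinases, fell from 158 to 72.5 RPKM (FDR 0.00304) and the transcription factor Fosb from 0.99 to 0.38 RPKM (FDR 0.0459), in the authors' deposited table. Atf3, a stress-induced transcription factor, rose from 1.81 to 5.33 RPKM (FDR 0.000807), per the authors' deposited table. The integrated stress response list had 3 members higher and 1 lower of 41, with a median of 0.22, in the authors' deposited table. Besides Atf3, those that passed were Ppp1r15a, which directs dephosphorylation of eIF2 alpha (15.4 to 26.7 RPKM), Cth, a cysteine-making enzyme (18 to 39.7 RPKM), and Pycr1, a proline-making enzyme, which fell (53.9 to 33.7 RPKM), per the authors' deposited table. Of 35 lysosomal genes, 3 fell (among them the protease Ctsd and the glycosidase Man2b1) and 1 rose, with a median of -0.44 and 32 of 35 values negative, in the authors' deposited table. The one that rose was Lipa, the lysosomal acid lipase, at 2.15 RPKM in control, 19.2 in knockdown and 14.0 in rescue (log2 fold change 2.72, FDR 1.53e-11), in the authors' deposited table. Of 45 nuclear-encoded respiratory genes (median -0.03), 1 passed in the authors' deposited table: Cox6a2, the muscle form of a cytochrome oxidase subunit, at 6.32 RPKM in control, 80.9 in knockdown and 71.5 in rescue (log2 fold change 3.45, FDR 1.29e-09).

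Of 50 core spliceosome genes and 42 SR and hnRNP genes, 0 passed an FDR of 0.05 in the authors' deposited table, with medians of 0.15 and 0.22. With 2.27% of all genes called, a count of 0 in lists of this size is near the background. Of 18 genes of 3' splice site recognition (median 0.12), Sap30bp alone passed in the authors' deposited table. The 13 mitochondrially encoded genes all had positive values, with a median of 0.39, and 0 passed in the authors' deposited table. Their median was 0.065 in knockdown of this line and -0.075 in rescue of the exon-3-lacking line (the authors' deposited table). Interferon response genes had 2 of 29 lower, H2-K1 and H2-D1 of antigen presentation (FDR 0.0029 and 0.0136), and a median of -0.38, in the authors' deposited table. In that list Ifih1, a sensor of double-stranded RNA, was called higher from a value listed at 0 RPKM to 0.06 RPKM (the authors' deposited table). Axon guidance (median 0.0011) had Robo1 and Nrp1 higher and Sema6b lower of 48, and of 26 p53 targets (median -0.11) Gadd45a rose from 9.64 to 28.7 RPKM (FDR 1.73e-05), in the authors' deposited table. Single calls were Cdc25b of 40 G2 and mitosis genes (median -0.12), Tm7sf2 of 32 lipid synthesis genes (median -0.15) and Pdgfra of 15 mesenchymal markers (median 0.44, but -0.62 on log2 RPKM ratios of the 5 with at least 1 RPKM), all lower, in the authors' deposited table. Sinhcaf of 19 SIN3 and HDAC complex genes (median 0.03) was higher, in the authors' deposited table. No member passed among 13 cyclin L, CDK11 and CLK kinases, 24 neuronal splicing regulators, 25 genes of the exon junction and nonsense-mediated decay, 57 of the mitochondrial ribosome, 20 of the unfolded protein response, 11 of the heat shock response, 45 of DNA replication, 74 cytosolic ribosomal proteins and 8 glial and immune markers, with medians from -0.18 to 0.18, in the authors' deposited table, where 2.27% of all genes were called.

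Expression was also read for the genes with more retained introns. Of the 139 genes with an intron set apart and more retained, 137 had an expression test. Of these, 6 fell and 0 rose in the authors' deposited table, where 1.3% of all genes were called lower and 0.97% higher. The median log2 fold change of the 137 was -0.14. That of the 5695 genes with any tested intron, of which 17 rose and 78 fell, was -0.01, in the authors' deposited table. The 6 were Cers4, Parp3, Ptprn, Aebp1, Haghl and Tm7sf2. Parp3, a poly(ADP-ribose) polymerase of DNA repair, fell from 19.1 to 9.90 RPKM (log2 fold change -0.98, FDR 0.000742), and Cers4 from 85.0 to 46.8 RPKM (-0.74, FDR 0.0105), in the authors' deposited table. In knockdown Parp3 was lower still, at 6.35 RPKM (log2 fold change -1.51) in the authors' deposited table. Its 1113 nt intron was at 42.9% and 30.8% in control, 31.0% and 40% in knockdown and 53.9% and 51.2% in rescue. Parp3 RNA was thus lowest where retention overlapped control. For the more retained introns of Cers4, Ptprn, Aebp1, Haghl and Tm7sf2, both knockdown libraries lay above both controls. Of the 83 genes with an exon included less, Eno2 and Galns, a lysosomal sulfatase, fell and 0 rose, in the authors' deposited table, a count near the 1.3% of all genes called lower. H2-Ke6, Mst1, Ilvbl and Ppp1r16a had log2 fold changes of -0.33, -0.21, -0.18 and 0.22 in the authors' deposited table, none passing (FDR 0.873, 0.957, 0.959 and 0.928).

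Knockdown in the exon-3-lacking line gives a choice of genes that rests on other libraries, though siRNA against Sap30bp was used there too. Of the 241 genes it raised at an FDR under 0.05, 108 (44.8%) were also called higher in rescue of the exon-3-containing line, with a median log2 fold change of 1.37, where 0.97% of all genes were called higher, in the authors' deposited table. Of the 246 genes it lowered, 128 (52%) were called lower, with a median of -0.94, where 1.3% of all genes were called lower, in the authors' deposited table. Of both choices, 0 genes were called in the opposite direction (the authors' deposited table). In the reverse choice, 86 of 319 genes raised by knockdown of the exon-3-containing line (27%) and 51 of 474 lowered (10.8%) were called the same way in rescue of the exon-3-lacking line, in the authors' deposited table. That rescue called 116 (0.539%) genes higher and 83 (0.385%) lower, 0.924% in all, in the authors' deposited table. The lines were compared in rescue against control by a signed z from the deposited p-values with Benjamini-Hochberg adjustment. The comparison is one of strength of evidence and not of log2 fold change, and it passed for 4 of 21541 genes (0.0186%). An unadjusted p under 0.05 was reached by 413 genes, fewer than the 1077 that are 5% of those tested. Ccn4, a matricellular protein of the Wnt pathway, was one of the 4 genes. It was at 4.66 RPKM in control and 13.6 in rescue of the exon-3-containing line and 4.85 and 5.88 in the other line (the authors' deposited table, adjusted p of the signed z difference 0.0298).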

How the data were processed

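RNA-seq of 12 samples (6 groups of 2) was compared. Per the file headers, the deposited vast-tools table holds inclusion in percent per event and library on mm9. The authors' deposited expression table holds 1 RPKM value a group and, per comparison, a log2 fold change, p-value and FDR. Changes in percentage points and event calls stand in the authors' deposited splicing table, with the call rule and coverage filter not given in the sources used here. Salmon 0.14.1 and edgeR are named in the submitters' processing notes. Read depth is unknown, and 0 per-sample columns went unused.

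Of 401633 entries, 37194 first sites of alternative splice site groups were left out. Events measured in every library with a mean from 2% to 98% were fitted in limma 3.58.1 (R 4.3.3) with 6 group means and a trended, robust variance. Calls needed a Benjamini-Hochberg adjusted p under 0.05 and 15 points. Simulated data for rescue against control (28980 events, 200 changed at random) had normally distributed noise around the mean of each event. By an adjusted p under 0.05 alone, the fit recovered 57.5% of changes of 15 points, 86.5% of 25 and 94.5% of 40. Real replicates can be more uneven, and these shares leave out the rule of 15 points. They do not show that changes of these sizes were absent from the data. For expression the authors' FDR under 0.05 was used. The difference between lines in expression turned each deposited p into a signed z, and its variance is taken as that of independent libraries.

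The comparison, lists and rules were chosen with earlier results of these data known. Named genes are the 12 highest and 12 lowest called ones with at least 1 RPKM in control or rescue, called list members, Sap30bp and Rbm17. The rule for events took called ones, and none was called. Named events were instead taken, after their values were seen, from those not overlapping and 15 points apart: the 15 largest in each direction, 1 per gene, the 3 largest per type and direction, 8 knockdown events of the other line with the largest remaining difference and 4 with the smallest. Other genes and events were named after their values were seen: those of genes with 3 or more introns, called host genes, Prpf4b and Mbnl1. Some items that these rules name are not reported here.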

Additional observations from a re-analysis of the deposited data

Results flagged for a closer look

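Sap30bp exon 3 differed between the lines in rescue against control by 85.8 points (limma interaction, SE 4.26, adjusted p = 1.29e-05), and the induced cDNA of one line lacks that exon. In expression 4 genes passed for a difference between the lines by the signed z with Benjamini-Hochberg adjustment. The signed z compares the strength of evidence in each line, which also depends on expression level, and not the size of the log2 fold change. Ccn4 had a log2 fold change of 1.60 in the exon-3-containing line and 0.19 in the other, in the authors' deposited table (adjusted p = 0.0298). Plcl1 had 6.87 and 1.86 in the authors' deposited table (adjusted p = 0.00138), from control levels of 0.01 and 0.08 RPKM. B230209E15Rik had 1.73 and 0.19 in the authors' deposited table (adjusted p = 0.0464), with control levels of 11.8 and 29.2 RPKM. Gm48275 was at 1.46 RPKM in control and 11.4 in rescue of the exon-3-containing line, and at 18.1 RPKM in control and listed at 0 in rescue of the other, in the authors' deposited table (adjusted p = 1.06e-08).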

How the results depend on the processing

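The count of limma calls for rescue against control, 0, was 1 without a filter on mean inclusion, 1 at an adjusted p under 0.1 (a threshold chosen after seeing the data), and 0 to 1 with each library left out (1 without knockdown replicate 2). The intron of H2-Ke6 passed without the filter (limma adjusted p = 0.0382). With the replicate number as a block the count was 0 and Sap30bp exon 3 stayed at 4.11 points. Deviations of same-numbered control and rescue replicates correlated at 0.187, which with 2 numbers was not taken as a pairing. Calls in the exon-3-lacking line and of the difference between lines were 2 in place of 1 when 10 of 12 libraries with a value sufficed. The 98 knockdown calls were 53 on the logit scale, 20 without the filter, 0 with only the 6 libraries of the line, 258 with the replicate block and 0 to 144 with each library left out. Events set apart were 386, 1154 at 10 points, and 407 to 737 with a control or rescue library left out, also settings chosen after seeing the data. With a library left out, non-overlap is easier to meet, so those counts are not directly comparable with 386. The median of 11.4 points over 257 introns was 10.2 to 13.2 with each library left out and 7.06 over the 4 introns that limma called in the other line. Differences near 0 turned sign: Dgat1 ranged from -9.10 to 5.39 (1.81 without rescue replicate 1), Lrdd from -5.48 to 2.33 (1.67 without rescue replicate 2) and Gigyf1 from -2.20 to 3.97. The 490 genes were 253 with at least 5 RPKM, 757 by an RPKM ratio of 2 at a pseudocount of 0.1 and 1359 by a ratio of 1.5 at a pseudocount of 1. On log2 RPKM ratios (pseudocount 1, pseudocount 0.1, and no minimum) the list medians were -0.16, -0.20 and -0.16 for NF-kB genes and -0.62, -0.71 and 0.014 for mesenchymal markers, and with no minimum -0.18 for interferon and -0.012 for glial and immune genes. The causes were not tested. Expression has 1 deposited value a group, so no library could be left out there. With 2 libraries a group and unknown depth, single events are uncertain by the SE beside them.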
